A study of Mus musculus with 32 samples.

Results

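RNA of whole cortex was compared between single-housed mice that behaved anxiously on fluoxetine (Sh + Flx anxious) and single-housed mice that behaved normally on it (Sh + Flx). The comparison holds 8 of the 32 RNA sequencing libraries of the series, 4 Sh + Flx anxious and 4 Sh + Flx, chosen by the labels for behavior, treatment and sample type. All mice carried the transgene Tg(S100a10-EGFP/Rpl10a)ES691Htz, in which the regulatory elements of S100a10 drive an EGFP-tagged ribosomal protein. Input libraries were made from total RNA of the cortex before the tagged polysomes were purified, so that they hold RNA of all cortical cells. Mice of both groups were male, had lived alone from weaning into adulthood, and drank 0.167 g/L fluoxetine for 21 days according to the labels. The study sorted them afterwards by their behavior in an open field, and no treatment separates the groups. Untreated single-housed (Sh) and group-housed (Gh) mice of the same line, 4 input libraries each, serve here to place the levels. Cortices of 3 mice were pooled for each library, with hippocampi and striata taken out, so that a value is a mean over mice.

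Fluoxetine blocks the serotonin transporter, and in a share of patients and animals it comes with anxiety. Whole cortex holds excitatory neurons of all layers, interneurons, astrocytes, oligodendrocytes (which make myelin), microglia and vessels. Its RNA also reports recent neuronal activity, since transcription factors such as those of the Fos, Egr and Nr4a families are induced within minutes of strong firing.

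The libraries were alike in depth and in the share of reads assigned to genes. They held 20907109 to 29668891 counts in genes for Sh + Flx anxious and 23403561 to 32636948 for Sh + Flx. Reads outside annotated features made up 46.5% to 51.5% in Sh + Flx anxious and 47.8% to 50.1% in Sh + Flx (two-sided exact permutation test, n = 4 each, p = 0.83, adjusted p = 0.83 over 4 measures, smallest p possible 0.0286). S100a10, which marks the tagged layer 5 cells that the labels give as cell type, stood at 8.41, 5.57, 7.20 and 8.56 counts per 1000000 (CPM, scaled to the effective library size) in Sh + Flx anxious and at 5.51, 7.32, 7.74 and 8.14 CPM in Sh + Flx. These levels overlapped. Within each group, however, replicates 1 and 4 resembled each other, and so did replicates 2 and 3. Averaged over genes, the chi-square between 2 libraries was 5.79 to 10.01 within these pairs and 14.4 to 17.2 across them in Sh + Flx anxious, and 5.29 to 5.44 against 13.5 to 16.1 in Sh + Flx. No pair came near the value of 1 that sampling noise alone would give, and the labels name no batch that joins them. Nor do the labels join a pair of one group to a pair of the other. Fold changes given below between replicates 1 and 4, or 2 and 3, of the groups match them by number alone. The replicates are biological ones by the methods of the study. If the pairs share mice or handling, p-values measure less than the spread between separate pools.

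Few genes were called between the groups, and the differences of the called genes were moderate. Of 15690 genes tested, 20 (0.127%) were called at an adjusted p under 0.05 by edgeR's quasi-likelihood test, 8 higher (0.051%) and 12 lower (0.0765%) in Sh + Flx anxious. All 20 had 4 libraries of one group beyond the 4 of the other, which was the case for 2.77% of all genes in the higher and 2.55% in the lower direction. Their log2 fold changes lay between 0.25 and 0.97 in size, over mean levels of 4.44 to 750 CPM. The median over all genes was 0.004, and 51.4% of genes lay above 0. At an unadjusted p under 0.05 stood 1251 genes (7.97%), 625 higher (3.98%) and 626 lower (3.99%).

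**Figure D1:**
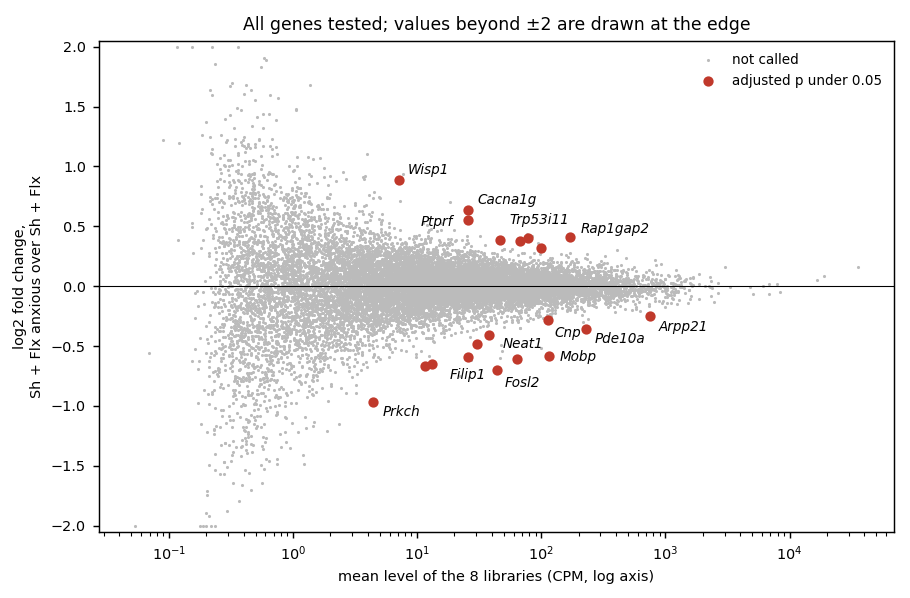
Log2 fold change of Sh + Flx anxious over Sh + Flx in whole cortex (vertical axis) against the mean level of the 8 libraries (horizontal axis, CPM, log scale), 1 point per gene for 15690 genes. The 20 called genes, in red, lie between 4.44 and 750 CPM, with Wisp1 (0.89) and Cacna1g (0.64) at the top and Prkch (-0.97) at the bottom.

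How many genes were called depended on single libraries and on how the replicates were counted. The number was 12 and 10 without Sh + Flx anxious replicates 1 and 4, and 9, 10, 13 and 11 without Sh + Flx replicates 1, 2, 3 and 4. With replicates 1 and 4 summed, and 2 and 3 summed, which leaves 2 samples a group, 1 gene (Neat1) was called. Cacna1g, Rap1gap2, Trp53i11, Neat1, Mobp, Fosl2 and Filip1 were called in each of the 8 fits that left out 1 library, and all 20 were also called by DESeq2 and by limma-voom with quality weights.

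Neat1 and Cacna1g, the genes with the smallest p in either direction, separated the groups most clearly. Neat1, a long noncoding RNA that builds the paraspeckles of the nucleus, lies on chromosome 19 (RefSeq GRCm38.p6, 5824708 to 5845480). It stood at 54.1, 51.0, 50.9 and 46.8 CPM in Sh + Flx anxious, against 76.6, 84.2, 73.4 and 74.6 CPM in Sh + Flx. Every Sh + Flx anxious library lay below every library of the other groups, since Sh averaged 74.1 ± 4.22 and Gh 79.9 ± 4.95 CPM (SD, n = 4 each). Neat1 fell by 0.61 on the log2 scale (standard error 0.07, adjusted p = 2.75e-05), and by 0.56 to 0.64 when any 1 library was left out (adjusted p 7.32e-05 to 0.000468).

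Cacna1g encodes the pore of a T-type calcium channel, which opens at low voltage and carries burst firing (chromosome 11, 94408391 to 94474400). Its levels were 33.8, 30.5, 28.5 and 33.1 CPM in Sh + Flx anxious, against 19.8, 20.8, 20.0 and 20.3 CPM in Sh + Flx. The Sh + Flx libraries hardly varied and lay close to Sh (18.0 ± 1.15 CPM) and Gh (17.3 ± 1.56 CPM), so that the anxious libraries stood alone. Cacna1g rose by 0.64 on the log2 scale (standard error 0.09, adjusted p = 0.000907, and 0.00073 to 0.0108 with 1 library left out).

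The other higher genes were Rap1gap2, Trp53i11, Ptprf, Wisp1, Spon1, Ccdc3 and Ssbp3. Rap1gap2, a GTPase-activating protein that switches off Rap1 (chromosome 11, 74383356 to 74610915), had 206, 184, 186 and 207 CPM in Sh + Flx anxious, against 146, 143, 147 and 153 CPM in Sh + Flx. It rose by 0.41 on the log2 scale (standard error 0.06, adjusted p = 0.00172). Trp53i11 had 83.3, 93.1, 88.5 and 88.8 CPM in Sh + Flx anxious, against 65.9, 69.5, 71.6 and 60.8 CPM in Sh + Flx, and rose by 0.40 on the same scale (standard error 0.07, adjusted p = 0.00401). In both genes the groups were far apart relative to their spread. Ptprf, the receptor tyrosine phosphatase LAR of growing axons and synapses, had 26.9, 30.8, 30.3 and 33.2 CPM in Sh + Flx anxious, against 22.9, 20.1, 21.2 and 18.5 CPM in Sh + Flx (log2 fold change 0.55, adjusted p = 0.0162). Its call was lost without Sh + Flx anxious replicate 4 and without Sh + Flx replicates 2 and 4 (adjusted p up to 0.0921). Wisp1, a secreted protein of the CCN family, was the highest by fold. It stood at 9.998, 9.95, 9.24 and 7.86 CPM in Sh + Flx anxious, against 3.88, 6.58, 5.54 and 3.90 CPM in Sh + Flx (log2 fold change 0.89, standard error 0.17, adjusted p = 0.0162, up to 0.0989 and not called without Sh + Flx anxious replicate 1 or Sh + Flx replicates 1 or 4). Sh + Flx replicates 1 and 4 were the lowest libraries of the 16 for this gene.

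Spon1, or F-spondin, is a secreted matrix protein of axon guidance. It had 67.6, 78.4, 80.3 and 79.5 CPM in Sh + Flx anxious, against 59.1, 59.1, 55.7 and 61.3 CPM in Sh + Flx (log2 fold change 0.38, adjusted p = 0.0334). Ccdc3 had 48.5 to 59.2 CPM in Sh + Flx anxious and 37.0 to 43.6 CPM in Sh + Flx (log2 fold change 0.39, adjusted p = 0.0341). Ssbp3, a cofactor of LIM-homeodomain complexes, had 102 to 119 CPM in Sh + Flx anxious and 86.3 to 92.7 CPM in Sh + Flx (log2 fold change 0.32, adjusted p = 0.037). These calls were the least stable among the higher genes. Spon1 kept it only without Sh + Flx anxious replicate 1, Ccdc3 only without Sh + Flx anxious replicate 4 and Ssbp3 only without Sh + Flx anxious replicate 2 or 3, with adjusted p up to 0.157, 0.179 and 0.156 in the other fits. Crtac1 and Chga came next by p without passing the test. Crtac1, an extracellular protein of axons, had 17.2, 17.7, 21.0 and 17.6 CPM in Sh + Flx anxious, against 13.1, 13.2, 13.2 and 11.5 CPM in Sh + Flx (adjusted p = 0.0541). Chga, or chromogranin A of dense-core vesicles, had 36.5, 34.0, 36.5 and 40.8 CPM in Sh + Flx anxious, against 25.0, 29.9, 28.4 and 27.6 CPM in Sh + Flx (adjusted p = 0.0569).

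**Figure D2:**
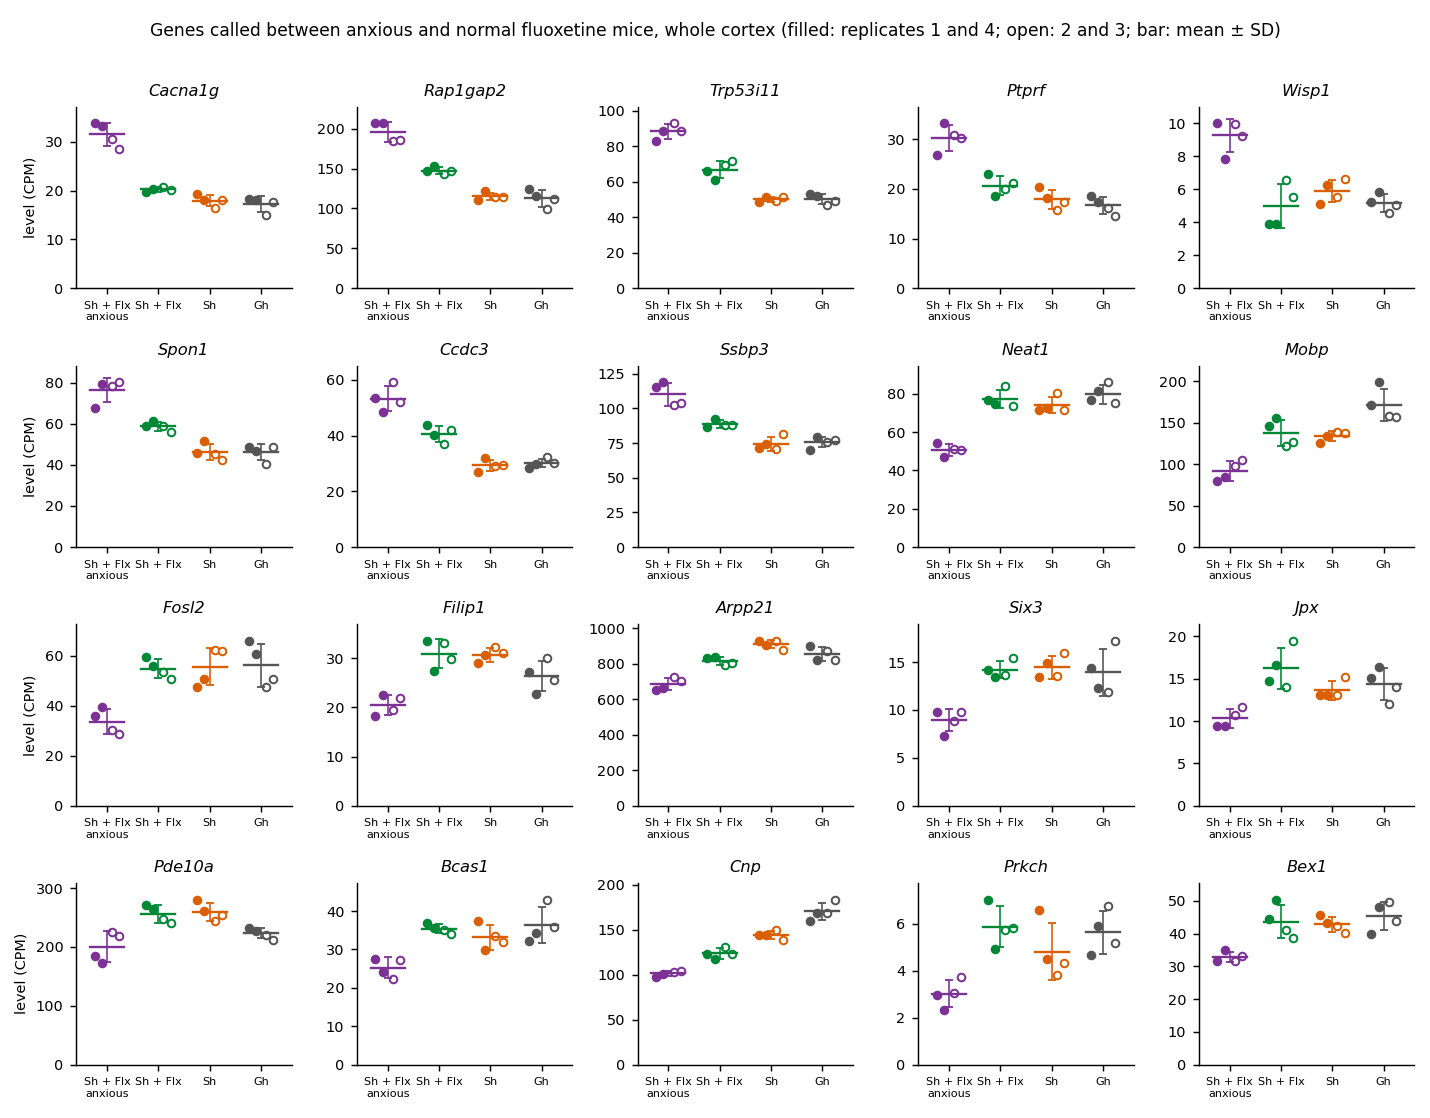
Level (CPM) of each of the 20 called genes in the 4 input libraries of Sh + Flx anxious, Sh + Flx, Sh and Gh. Points are libraries (filled, replicates 1 and 4, open, replicates 2 and 3) and bars the mean ± SD. For Neat1, Cacna1g and Fosl2, the 4 Sh + Flx anxious libraries lie outside the range of all 12 others, as for 19 of the 20 genes (all but Pde10a). The genes were chosen for differing from Sh + Flx, which favors such a position, and the share of all genes that hold it was not counted.

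Among the lower genes were 3 that belong to oligodendrocytes and their myelin: Mobp, Cnp and Bcas1. Mobp encodes the myelin-associated oligodendrocyte basic protein (chromosome 9, 120149742 to 120181488). Its levels were 79.2, 98.3, 105 and 84.9 CPM in Sh + Flx anxious, against 146, 122, 126 and 155 CPM in Sh + Flx. It fell by 0.58 on the log2 scale (standard error 0.09, adjusted p = 0.00146). The difference was wider between replicates 1 and 4 of the groups (log2 fold change -0.88) than between replicates 2 and 3 (-0.29). Cnp, the CNPase enzyme of myelin (chromosome 11, 100574909 to 100591875), had 97.1, 103, 104 and 100.5 CPM in Sh + Flx anxious, against 123, 131, 123 and 117 CPM in Sh + Flx. It fell by 0.29 on the log2 scale (standard error 0.06, adjusted p = 0.0247), with log2 fold changes of -0.28 and -0.29 in the pairs of replicates 1 and 4 and of 2 and 3. Cnp overlaps Dnajc7 by position, and reads of the shared stretch cannot be assigned by strand in libraries that do not mark it. Bcas1, which marks oligodendrocytes that begin to myelinate, had 27.6, 22.2, 27.3 and 24.0 CPM in Sh + Flx anxious, against 36.8, 35.0, 34.0 and 35.5 CPM in Sh + Flx (log2 fold change -0.48, adjusted p = 0.0247). The groups did not overlap in any of the 3. Cnp was not called without Sh + Flx anxious replicates 1 or 4 or Sh + Flx replicates 1, 2 or 3 (adjusted p up to 0.139), and Bcas1 was called only without Sh + Flx anxious replicate 1 or 3 (adjusted p up to 0.107 in the other fits).

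Of the 20 called genes, 14 had a start-site window, from 250 bases before to 50 after the start, in the RefSeq table of GRCm38.p6. The windows of Mobp and Cnp are shown because these are the called genes of myelin that have a window in the table. Both lie on the plus strand, Mobp at chr9:120149492-120149791 and Cnp at chr11:100574689-100574988. Capitals mark the letters ACAAAG or their reverse complement CTTTGT, a core recognised by Sox proteins, to which Sox10 of the oligodendrocyte lineage belongs.
Mobp: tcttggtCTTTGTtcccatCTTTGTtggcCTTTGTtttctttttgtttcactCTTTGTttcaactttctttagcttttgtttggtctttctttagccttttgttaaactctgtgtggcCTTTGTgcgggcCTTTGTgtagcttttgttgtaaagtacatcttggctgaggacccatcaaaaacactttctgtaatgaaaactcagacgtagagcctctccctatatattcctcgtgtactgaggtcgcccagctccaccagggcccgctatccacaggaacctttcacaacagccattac
Cnp: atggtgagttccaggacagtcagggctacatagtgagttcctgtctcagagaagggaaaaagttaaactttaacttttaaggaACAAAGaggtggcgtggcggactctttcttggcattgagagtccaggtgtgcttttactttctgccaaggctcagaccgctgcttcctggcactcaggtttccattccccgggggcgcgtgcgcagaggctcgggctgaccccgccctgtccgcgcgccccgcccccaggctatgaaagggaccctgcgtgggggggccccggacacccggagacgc
The window of Mobp holds the 6 letters 6 times. No other of the 32851 windows of the table holds them as often, so that the share of 0.00304% is the Mobp window itself. Cnp holds them once, and 18.7% of windows hold them at least once. Among the 14 called genes with a window, 5 hold them, the others being Arpp21, Filip1 and Rap1gap2, of which Rap1gap2 was higher and the rest lower in Sh + Flx anxious. The letters were chosen after these windows had been read. A match describes the sequence and says nothing of what binds there.

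All 20 measured markers of oligodendrocytes had a log2 fold change below 0, with a median of -0.19, whereas 48.6% of all genes lay below 0. Mobp and Cnp were called and 6 of the 20 stood at an unadjusted p under 0.05, all lower, against a background of 3.99%. Mbp, the myelin basic protein, had 174, 195, 178 and 181 CPM in Sh + Flx anxious, against 198, 207, 218 and 208 CPM in Sh + Flx (log2 fold change -0.19, adjusted p = 0.275). Trf, transferrin, had 30.5, 40.5, 40.1 and 32.7 CPM in Sh + Flx anxious, against 44.8, 43.1, 43.1 and 41.4 CPM in Sh + Flx (log2 fold change -0.26, adjusted p = 0.333). Neither passed the test, although the groups did not overlap in either. Summed over the list, the levels were 1859, 2128, 1978 and 1718 CPM in Sh + Flx anxious, against 2152, 2130, 2183 and 2189 CPM in Sh + Flx. Replicates 1 and 4 of Sh + Flx anxious were thus lowest, and the median log2 fold change was -0.30 between replicates 1 and 4 of the groups and -0.09 between replicates 2 and 3. Both fluoxetine groups lay below Sh, at 2560.1 to 2960.1 CPM, and Gh, at 2709 to 3009 CPM. In RNA of whole tissue, fewer cells of a type and less RNA per cell cannot be told apart. Of 14 markers of oligodendrocyte precursors measured, none was called and the median was -0.05.

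Striatal spiny neurons, the output neurons of the striatum, had the most marker genes at a low p. Their markers were present although striata had been removed, and 19 of 20 had a log2 fold change below 0 (median -0.36, against 48.6% of all genes). Six3 and Pde10a were called and 14 of the 20 stood at an unadjusted p under 0.05, all lower (70% of the list, against 3.99% of all genes). Six3 is a homeobox gene needed in mice for striatal neurons of the indirect pathway (chromosome 17, 85613608 to 85626191). It had 9.82, 8.81, 9.76 and 7.32 CPM in Sh + Flx anxious, against 14.2, 13.7, 15.4 and 13.5 CPM in Sh + Flx, and it fell by 0.67 on the log2 scale (standard error 0.13, adjusted p = 0.0176). Six3 overlaps the antisense gene Six3os1, and reads of both cannot be told apart in libraries that do not mark strand. Its call was lost without Sh + Flx anxious replicate 4 and without Sh + Flx replicates 1, 2 or 3 (adjusted p up to 0.101).

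Pde10a, the phosphodiesterase that breaks down cyclic nucleotides in spiny neurons (chromosome 17, 8525187 to 8986648), had 184, 226, 219 and 173 CPM in Sh + Flx anxious, against 272, 247, 241 and 265 CPM in Sh + Flx. It fell by 0.35 on the log2 scale (standard error 0.07, adjusted p = 0.0247), and the call was lost without Sh + Flx anxious replicates 1 or 4 or Sh + Flx replicates 1, 2 or 4 (adjusted p up to 0.128). Gng7, a G protein gamma subunit, had 49.6, 60.3, 65.3 and 58.5 CPM in Sh + Flx anxious, against 71.6, 74.6, 73.1 and 68.7 CPM in Sh + Flx, without overlap (log2 fold change -0.30, adjusted p = 0.118).

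The summed level of the striatal list was 1256, 1482, 1412 and 1220 CPM in Sh + Flx anxious, against 1633, 1501, 1529 and 1619.5 CPM in Sh + Flx. It was 1507 to 1683 CPM in Sh and 1409.8 to 1526 CPM in Gh. Between replicates 1 and 4 of the groups, the median log2 fold change was -0.58 and 19 of 20 genes were lower. Between replicates 2 and 3 it was -0.09, with 14 of 20 lower. Six3 differed by about as much in both pairs (-0.70 and -0.64), whereas Pde10a had -0.59 and -0.13. Not all members followed the list, since Ppp1r1b, which encodes DARPP-32, had 115, 131, 116 and 121 CPM in Sh + Flx anxious, against 116, 119, 120.4 and 115 CPM in Sh + Flx. Ppp1r1b was named after its values had been seen.

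Markers of choroid plexus epithelium, which makes cerebrospinal fluid, moved with the same libraries. Their summed level was 176, 316, 301 and 173 CPM in Sh + Flx anxious, against 250.1, 322, 310.4 and 258 CPM in Sh + Flx. Ttr, transthyretin, the most abundant product of this epithelium and named after its values had been seen, had 10.9, 67.6, 58.8 and 12.4 CPM in Sh + Flx anxious, against 38.1, 74.4, 70.1 and 40.6 CPM in Sh + Flx. Sh + Flx anxious replicates 1 and 4 were thus the lowest of the 8 libraries in choroid plexus, striatal and oligodendrocyte markers. Of 16 choroid plexus genes tested, 13 lay below 0 (median -0.36, against 48.6% of all genes below 0). None was called, and 4 stood lower and 1 higher at an unadjusted p under 0.05 (against 3.99% and 3.98% of all genes). Enpp2, 1 of the 4 lower, is also among the lower oligodendrocyte markers. The counts and summed levels of both lists hold it, so that they are not separate. The higher one was Slc5a5, an iodide transporter, with 19.0, 21.3, 20.6 and 19.99 CPM in Sh + Flx anxious, against 14.6, 17.7, 14.7 and 14.5 CPM in Sh + Flx (adjusted p = 0.124). F5, coagulation factor V, had 0.459, 1.33, 1.88 and 0.91 CPM in Sh + Flx anxious, against 1.85, 2.35, 3.18 and 3.15 CPM in Sh + Flx (adjusted p = 0.212). Calml4 was at 0.135 to 0.32 CPM in Sh + Flx anxious and 0.503 to 0.989 CPM in Sh + Flx (adjusted p = 0.255), and Otx2, a homeobox gene of the choroid plexus, at 0.424 to 3.43 CPM in Sh + Flx anxious and 1.63 to 3.14 CPM in Sh + Flx (adjusted p = 0.557). The part of the dissected tissue in the striatal and oligodendrocyte values was not tested.

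**Figure D3:**
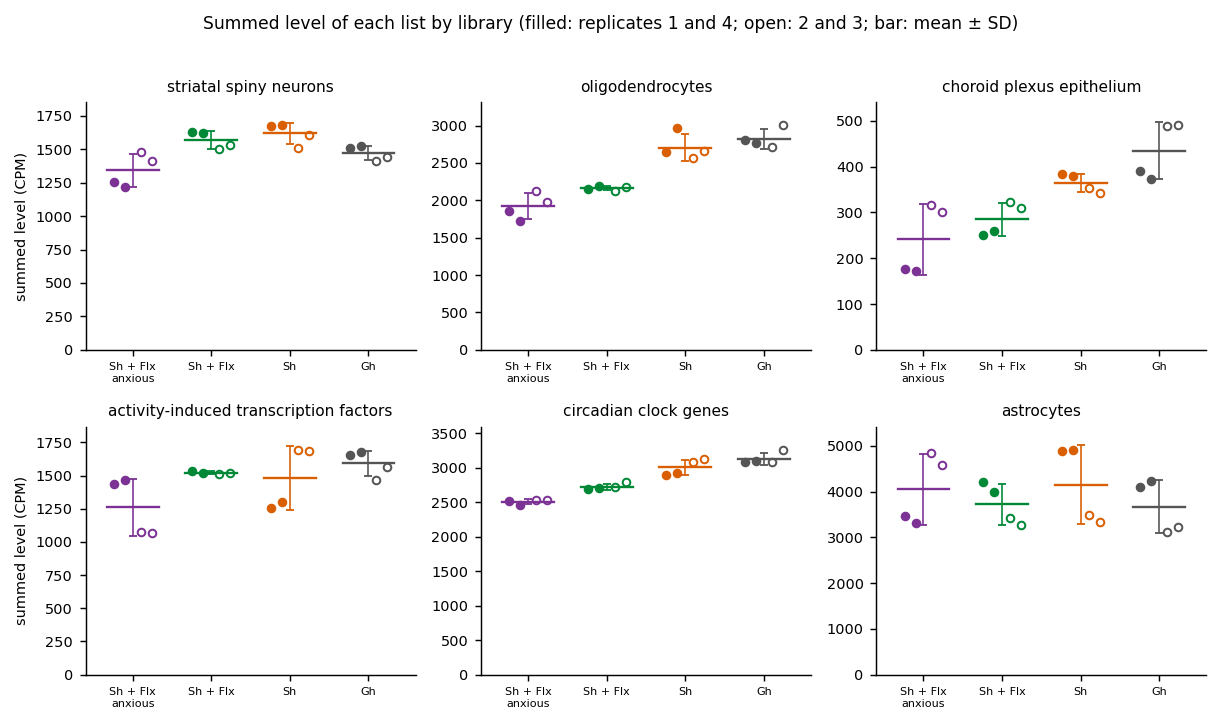
Summed level (CPM) of 6 gene lists in the input libraries of Sh + Flx anxious, Sh + Flx, Sh and Gh, with each library as a point (filled, replicates 1 and 4; open, replicates 2 and 3) and bars for the mean ± SD. Sh + Flx anxious replicates 1 and 4 are lowest for striatal (1256 and 1220), oligodendrocyte (1859 and 1718) and choroid plexus markers (176 and 173), and replicates 2 and 3 for activity-induced transcription factors (1073 and 1068).

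Activity-induced transcription factors showed the reverse division of libraries. Of 21 measured, 15 lay below 0 (median -0.32, against 48.6% of all genes below 0). Fosl2 was called and 8 stood at an unadjusted p under 0.05, all lower (38.1%, against 3.99% of all genes). Fosl2 encodes Fra-2, a subunit of the AP-1 factor (chromosome 5, 32136472 to 32157840). It had 36.1, 30.2, 28.8 and 39.6 CPM in Sh + Flx anxious, against 59.7, 53.4, 50.9 and 55.8 CPM in Sh + Flx. It fell by 0.70 on the log2 scale (standard error 0.11, adjusted p = 0.00172, and 0.00146 to 0.0185 with 1 library left out). The change was -0.61 between replicates 1 and 4 of the groups and -0.82 between replicates 2 and 3, so that both pairs carried it.

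The start-site window of Fosl2 (plus strand, chr5:32136222-32136521) is shown because it is the called member of this list. Capitals mark GCGGGGGCG, the site recognised by Egr proteins, searched on both strands.
Fosl2: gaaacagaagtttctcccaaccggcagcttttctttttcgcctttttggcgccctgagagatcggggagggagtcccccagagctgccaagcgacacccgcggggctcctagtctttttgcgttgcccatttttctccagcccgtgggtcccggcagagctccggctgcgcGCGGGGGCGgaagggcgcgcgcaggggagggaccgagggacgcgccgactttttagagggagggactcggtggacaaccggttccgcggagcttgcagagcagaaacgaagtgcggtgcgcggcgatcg
These letters stood in 2.91% of the 32851 windows, and among the 14 called genes with a window they stood in those of Fosl2 and Ssbp3, which differed in opposite directions. They too were chosen after the windows had been read.

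The other members did not pass the test. Nr4a2, an orphan nuclear receptor, had 70.6, 67.3, 68.4 and 77.0 CPM in Sh + Flx anxious, against 83.3, 85.0, 91.1 and 86.7 CPM in Sh + Flx, without overlap (log2 fold change -0.29, adjusted p = 0.0603). Egr1, a zinc-finger factor of the same response, had 518, 337, 353 and 538 CPM in Sh + Flx anxious, against 611, 589, 586 and 609.9 CPM in Sh + Flx (log2 fold change -0.45, adjusted p = 0.13). In Egr1 too the groups did not overlap, and the lowest values came from Sh + Flx anxious replicates 2 and 3. The log2 fold change of Egr1 was -0.21 between replicates 1 and 4 of the groups and -0.77 between replicates 2 and 3. Nr4a3 had 5.69, 4.29, 4.32 and 6.17 CPM in Sh + Flx anxious, against 8.77, 6.22, 6.45 and 8.68 CPM in Sh + Flx (adjusted p = 0.305). Fos itself had 16.5, 3.48, 5.44 and 15.9 CPM in Sh + Flx anxious, against 16.8, 11.4, 11.6 and 16.8 CPM in Sh + Flx (log2 fold change -0.43, 95% interval -1.14 to 0.27, adjusted p = 0.83). Its levels overlapped, and replicates 2 and 3 were lower than 1 and 4 in both groups. Summed over the list, levels were 1433, 1073, 1068 and 1462 CPM in Sh + Flx anxious, against 1535, 1514, 1516 and 1521 CPM in Sh + Flx. The untreated groups spanned 1252 to 1695 CPM in Sh and 1466 to 1681 CPM in Gh, so that only Sh + Flx anxious replicates 2 and 3 lay below all of them. The median log2 fold change was -0.10 between replicates 1 and 4 of the groups and -0.61 between replicates 2 and 3.

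Genes that carry out the response to activity, rather than regulate it, lay on both sides of 0. Of 28 measured, 17 lay below 0 (median -0.07, against 48.6% of all genes below 0). None was called, and 4 stood higher and 2 lower at an unadjusted p under 0.05 (against 3.98% and 3.99% of all genes). The 2 lower ones, Tac1 and Penk, are also members of the striatal list and count among its lower genes. Tac1 had log2 fold changes of -0.85 between replicates 1 and 4 of the groups and 0.16 between replicates 2 and 3. Their median was 0.07 between replicates 1 and 4 of the groups, with 11 of 28 lower, and -0.18 between replicates 2 and 3, with 18 of 28 lower. Whether they differ from the transcription factors was not tested. Nptx1, a neuronal pentraxin that gathers glutamate receptors, had 341, 383, 353 and 341 CPM in Sh + Flx anxious, against 321, 269.6, 281 and 318 CPM in Sh + Flx (log2 fold change 0.25, adjusted p = 0.116). Inhba, a subunit of activin, had 97.2, 72.2, 76.1 and 108 CPM in Sh + Flx anxious, against 68.4, 58.3, 67.7 and 68.1 CPM in Sh + Flx (log2 fold change 0.43, adjusted p = 0.129). In both genes the groups did not overlap, and Sh (224 ± 6.95 CPM for Nptx1, 36.1 ± 1.99 CPM for Inhba) and Gh (214 ± 18.0 and 34.8 ± 6.23 CPM) lay lower than either fluoxetine group. Sorcs3, a sorting receptor, had 25.4 to 36.1 CPM in Sh + Flx anxious and 24.3 to 26.6 CPM in Sh + Flx (adjusted p = 0.425), and Tac1, the precursor of substance P, 21.4 to 31.3 CPM in Sh + Flx anxious and 26.3 to 42.0 CPM in Sh + Flx (adjusted p = 0.434). Arc, a regulator of glutamate receptor endocytosis, had 54.3, 30.6, 36.5 and 51.4 CPM in Sh + Flx anxious, against 37.8, 57.8, 54.2 and 35.4 CPM in Sh + Flx (log2 fold change -0.10, adjusted p = 0.96). Matched by number, replicates 1 and 4 were thus higher and replicates 2 and 3 lower in Sh + Flx anxious, with log2 fold changes of 0.53 and -0.74. Matched the other way, replicates 1 and 4 of Sh + Flx anxious (54.3 and 51.4 CPM) lay near replicates 2 and 3 of Sh + Flx (57.8 and 54.2 CPM). Replicates 2 and 3 of Sh + Flx anxious (30.6 and 36.5 CPM) then lay near replicates 1 and 4 of Sh + Flx (37.8 and 35.4 CPM). Bdnf, the brain-derived neurotrophic factor, had 44.1 to 57.3 CPM in Sh + Flx anxious and 47.6 to 53.3 CPM in Sh + Flx (log2 fold change 0.01, 95% interval -0.19 to 0.22, adjusted p = 0.993), against 29.4 ± 1.09 CPM in Sh and 26.1 ± 4.68 CPM in Gh.

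**Figure D4:**
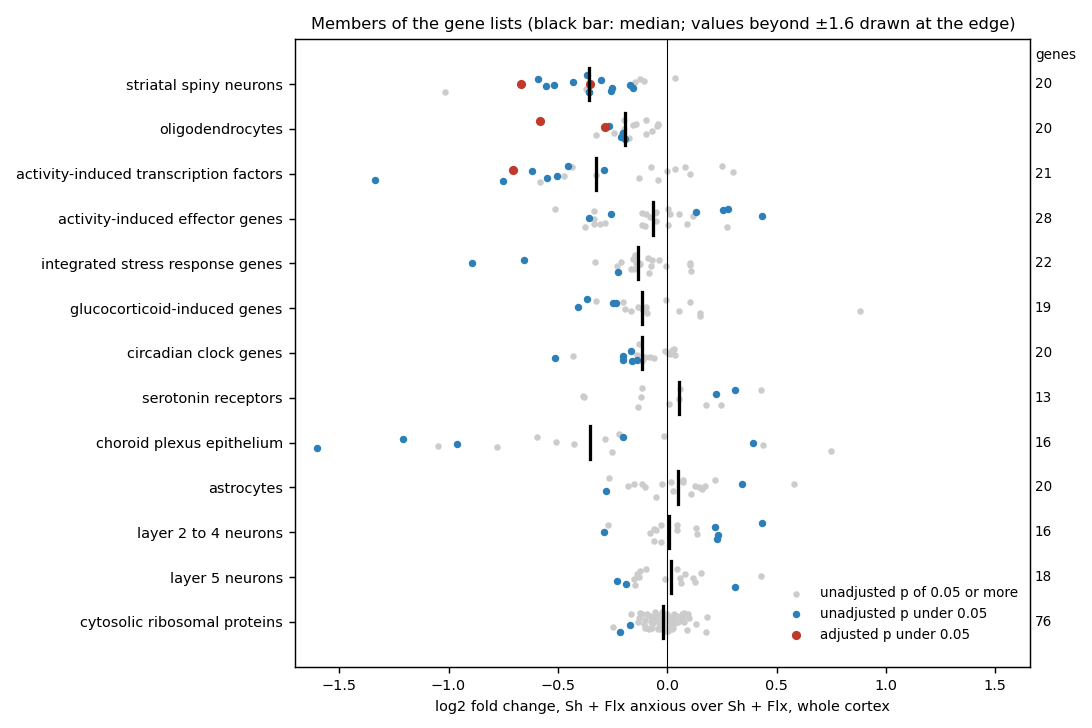
Log2 fold change of Sh + Flx anxious over Sh + Flx for each measured member of 13 gene lists (points), with the list's median as a black bar and the number of genes at the right. Red marks an adjusted p under 0.05 and blue an unadjusted one; the medians of striatal markers (-0.36) and activity-induced transcription factors (-0.32) lie left of 0, and those of layer 5 markers (0.02) and ribosomal proteins (-0.02) close to it.

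The remaining lower genes belong to no single list. Filip1, which binds filamin A and promotes its breakdown (chromosome 9, 79805018 to 80012851), had 18.2, 19.5, 21.9 and 22.5 CPM in Sh + Flx anxious, against 33.5, 33.1, 29.7 and 27.3 CPM in Sh + Flx. It fell by 0.59 on the log2 scale (standard error 0.10, adjusted p = 0.00321). Prkch, the eta isoform of protein kinase C, was the lowest by fold, with 2.97, 3.05, 3.72 and 2.33 CPM in Sh + Flx anxious, against 7.03, 5.73, 5.80 and 4.91 CPM in Sh + Flx (log2 fold change -0.97, standard error 0.19, adjusted p = 0.0279). Both had no overlap between the groups. Jpx, a noncoding RNA of the X inactivation center, had 9.47, 10.7, 11.7 and 9.37 CPM in Sh + Flx anxious, against 14.8, 14.02, 19.5 and 16.7 CPM in Sh + Flx (log2 fold change -0.65, adjusted p = 0.0176). Arpp21, a cAMP-regulated phosphoprotein of forebrain neurons, had 649, 724, 701 and 662 CPM in Sh + Flx anxious, against 833, 792, 801 and 835 CPM in Sh + Flx. It was the most abundant called gene and differed by the smallest fold (log2 fold change -0.25, standard error 0.05, adjusted p = 0.0162). For Arpp21 the log2 fold change was -0.35 between replicates 1 and 4 of the groups and -0.16 between replicates 2 and 3. Whether Arpp21 moved with the striatal markers was not tested. Bex1, a small X-linked protein of neurons, had 31.7, 31.6, 33.2 and 34.9 CPM in Sh + Flx anxious, against 44.4, 41.0, 38.8 and 50.4 CPM in Sh + Flx (log2 fold change -0.41, adjusted p = 0.0429).

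Filip1 kept its call whichever library was left out (adjusted p 0.00436 to 0.0294). Prkch kept it only without Sh + Flx anxious replicate 3 or Sh + Flx replicate 4, and Bex1 only without Sh + Flx replicate 3 (adjusted p up to 0.142 and 0.196 in the other fits). Jpx lost it without Sh + Flx anxious replicates 1 or 4 or Sh + Flx replicates 3 or 4, and Arpp21 without replicates 1 or 4 of either group (adjusted p up to 0.129 and 0.0847).

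The levels in Sh and Gh placed the 20 genes in contrasting ways. For most lower genes, Sh + Flx lay near Sh and Sh + Flx anxious below it. Against Sh, the log2 fold changes of Sh + Flx anxious and of Sh + Flx were -0.55 and 0.06 for Neat1, -0.72 and -0.02 for Fosl2, -0.58 and 0.01 for Filip1, -0.55 and 0.03 for Mobp, and -0.70 and -0.03 for Six3. Cacna1g (0.81 and 0.17) and Wisp1 (0.65 and -0.23) were of the same kind among the higher genes. Rap1gap2 (0.77 and 0.35), Trp53i11 (0.82 and 0.42), Spon1 (0.73 and 0.35), Ccdc3 (0.86 and 0.47) and Ssbp3 (0.57 and 0.25) instead lay above Sh in both fluoxetine groups, with adjusted p of 0.000367 to 0.033 for Sh + Flx, and farther above it in Sh + Flx anxious. Cnp lay below Sh in both (-0.51 and -0.22, the second with adjusted p = 0.0292). Against Gh, Sh + Flx was lower in Mobp (-0.32, adjusted p = 0.0234) and Cnp (-0.46, adjusted p = 4.88e-06), so that Mobp in Sh + Flx lay near Sh but not near Gh. The contrasts against Sh share the Sh libraries, and each shares libraries with the comparison that chose the genes. Over all genes, 625 were called higher (3.98%) and 451 lower (2.87%) in Sh + Flx anxious against Sh, and 286 higher (1.82%) and 125 lower (0.797%) in Sh + Flx against Sh. Sh + Flx against Gh gave 486 higher (3.1%) and 347 lower (2.21%).

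In the TRAP fraction, the ribosome-bound RNA of S100a10 cells, the same contrast was smaller for most of the 20 genes. The 20 were picked for their contrast in input, so that the sizes in input and TRAP are not on an equal footing. The log2 fold changes ran from -0.08 (Trp53i11) to 0.39 (Ptprf) for the 8 genes that were higher in whole cortex, and from -1.80 (Fosl2) to -0.03 (Bcas1) for the 12 that were lower. Fosl2 passed the test in TRAP (standard error 0.38, adjusted p = 0.0308), and Cacna1g (0.34, adjusted p = 0.228), Neat1 (-0.41, adjusted p = 0.171) and Mobp (-0.49, adjusted p = 0.177) were not. In TRAP, Fosl2 had 40.8, 40.97, 32.04 and 44.99 CPM in Sh + Flx anxious, against 245, 41.1, 42.8 and 224 CPM in Sh + Flx. The groups overlapped there, and the fold came from Sh + Flx replicates 1 and 4 alone, since replicates 2 and 3 lay within the range of Sh + Flx anxious. The difference of the contrast between TRAP and input passed the test in 0 of 16143 genes by edgeR (0%). At an unadjusted p under 0.05 stood 1020 genes (6.32%), and DESeq2 called 5. The contrast was therefore not shown to differ between the fractions for any of the 20, the smallest unadjusted p being 0.0138 for Wisp1 and 0.0142 for Trp53i11.

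**Figure D5:**
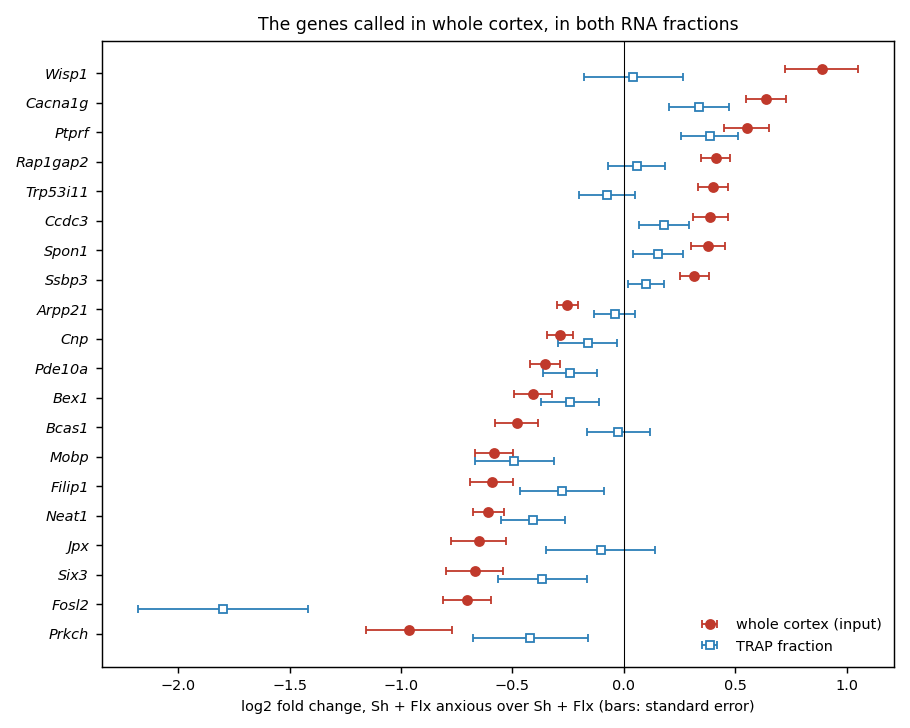
Log2 fold change of Sh + Flx anxious over Sh + Flx, with its standard error, for the 20 genes called in whole cortex (red circles), beside the value in the TRAP fraction (blue squares). Fosl2 lies at -0.70 in whole cortex and -1.80 in TRAP, where 2 of the 4 Sh + Flx libraries (245 and 224 CPM) carry the difference, whereas Wisp1 lies at 0.89 and 0.04.

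Stress-linked gene groups held no called member. Of 19 glucocorticoid-induced genes measured, 14 lay below 0 (median -0.12, against 48.6% of all genes below 0), and 4 stood lower and none higher at an unadjusted p under 0.05 (against 3.99% of all genes lower). Mt2, a metallothionein, had 23.1, 26.1, 25.95 and 23.7 CPM in Sh + Flx anxious, against 31.9, 33.5, 30.3 and 31.4 CPM in Sh + Flx, without overlap (log2 fold change -0.37, adjusted p = 0.214). Errfi1, Pdk4 and Mt1 had log2 fold changes of -0.25, -0.41 and -0.24 (adjusted p = 0.388, 0.409 and 0.521). Fkbp5 and Sgk1, the classical targets of the receptor, had 15.3 to 18.9 and 45.3 to 52.2 CPM in Sh + Flx anxious, against 16.6 to 21.4 and 50.3 to 61.4 CPM in Sh + Flx (log2 fold changes -0.10 and -0.16, adjusted p = 0.901 and 0.627). The 95% interval of Fkbp5 was -0.34 to 0.13, and that of Sgk1 was -0.33 to 0.00055. The list as a whole thus lay slightly below 0. The intervals of its classical members included 0, that of Sgk1 only just.

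Of 22 genes of the integrated stress response, which restores protein and amino acid balance, 19 lay below 0 (median -0.14, against 48.6% of all genes below 0) and 3 stood lower at an unadjusted p under 0.05 (against 3.99%). Mthfd2, a mitochondrial folate enzyme, had 1.55, 1.48, 2.28 and 2.16 CPM in Sh + Flx anxious, against 3.84, 2.80, 3.48 and 3.82 CPM in Sh + Flx (log2 fold change -0.89, adjusted p = 0.131). Atf5 had 3.32, 2.95, 1.84 and 3.27 CPM in Sh + Flx anxious, against 4.496, 4.39, 4.38 and 4.70 CPM in Sh + Flx (log2 fold change -0.65, adjusted p = 0.239). The groups were apart in both, at low levels. Atf4, the central factor of the response, had 75.2 to 90.6 CPM in Sh + Flx anxious and 90.1 to 106 CPM in Sh + Flx (adjusted p = 0.308), and Psat1, a serine synthesis enzyme, 83.3 to 109 CPM in Sh + Flx anxious and 97.8 to 109 CPM in Sh + Flx (adjusted p = 0.66).

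Of 20 circadian clock genes, 15 lay below 0 (median -0.11, against 48.6% of all genes below 0) and 6 stood lower at an unadjusted p under 0.05 (against 3.99% of all genes), and none was called. Their summed level was 2517, 2534, 2527 and 2459 CPM in Sh + Flx anxious, against 2690.0, 2714, 2786 and 2706 CPM in Sh + Flx, so that the groups did not overlap and no pair of replicates stood apart. Hlf, an output factor of the clock, had 561, 618, 619 and 534 CPM in Sh + Flx anxious, against 649, 688, 684 and 662 CPM in Sh + Flx (log2 fold change -0.20, adjusted p = 0.159). Nr1d1, or Rev-erb alpha, which shares its locus with Thra on the opposite strand, had 191 to 231 CPM in Sh + Flx anxious and 227 to 244 CPM in Sh + Flx (adjusted p = 0.261). Nfil3, a repressor at the same promoters, had 3.88 to 6.43 CPM in Sh + Flx anxious and 6.67 to 7.48 CPM in Sh + Flx (adjusted p = 0.378), and Rora, an activator of clock genes, 315 to 335 CPM in Sh + Flx anxious and 343 to 381 CPM in Sh + Flx (adjusted p = 0.397). Rora also marks thalamic neurons and is itself a member of the thalamic and habenular list. Of the 14 genes of that list measured, 9 lay below 0 (median -0.13, against 48.6% of all genes below 0). None was called, and 3 (Rora, Plekhg1 and Tcf7l2) stood lower at an unadjusted p under 0.05 (against 3.99% of all genes). The summed level of the list was 534, 532, 522 and 523 CPM in Sh + Flx anxious, against 580.5, 573, 582 and 598 CPM in Sh + Flx, without overlap. Most of this sum is Rora itself, at 315 to 335 and 343 to 381 CPM, so that the sum is not separate from the Rora value. The part of thalamic tissue in the Rora value was not tested. At which hours the mice were killed is not stated in the labels.

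Serotonin receptors, the targets of the transmitter that fluoxetine raises, held no called gene among 13 measured (median 0.05). At an unadjusted p under 0.05 stood 2 higher and none lower, against 3.98% and 3.99% of all genes. Htr5a had 53.1, 54.2, 57.7 and 56.7 CPM in Sh + Flx anxious, against 44.2, 44.8, 44.1 and 45.7 CPM in Sh + Flx (log2 fold change 0.31, adjusted p = 0.157). Htr2a, the receptor through which serotonin excites cortical pyramidal neurons, had 25.6, 28.4, 28.4 and 25.4 CPM in Sh + Flx anxious, against 23.8, 24.1, 22.3 and 22.2 CPM in Sh + Flx (log2 fold change 0.22, 95% interval 0.03 to 0.42, adjusted p = 0.529). In both receptors the 4 anxious libraries were the higher ones. Htr1a, which inhibits the same neurons, had 13.4 to 19.1 CPM in Sh + Flx anxious and 15.2 to 21.5 CPM in Sh + Flx (log2 fold change -0.12, 95% interval -0.36 to 0.12, adjusted p = 0.876). Htr2c had 34.2 to 42.7 CPM in Sh + Flx anxious and 39.3 to 43.8 CPM in Sh + Flx (adjusted p = 0.796), and Htr4, at 1.59 to 3.76 CPM in Sh + Flx anxious and 2.36 to 3.61 CPM in Sh + Flx, had an interval of -1.01 to 0.25 (adjusted p = 0.835). Slc6a4, the transporter that fluoxetine blocks, is made in the raphe and was too low to be tested, at 0 to 0.106 CPM in Sh + Flx anxious and 0 to 0.294 CPM in Sh + Flx. S100a10 had a log2 fold change of 0.06 (95% interval -0.28 to 0.40, adjusted p = 0.97), and none of the 10 measured genes of p11 and its partners was called (median 0.05).

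Cortical neurons and astrocytes had list medians of 0.05 or less, and microglia a higher one. The medians were 0.01 for layers 2 to 4, 0.02 for layer 5, 0.05 for layer 6 and subplate, 0.01 for interneurons, 0.05 for astrocytes and 0.14 for microglia, with no called gene in any. Of the 19 microglial genes, 15 lay above 0, against 51.4% of all genes, with medians of -0.09 between replicates 1 and 4 and 0.30 between replicates 2 and 3. Astrocyte markers summed to 3467, 4854, 4575 and 3319 CPM in Sh + Flx anxious, against 4202, 3419, 3276 and 3982 CPM in Sh + Flx. The pairs of replicates thus lay on opposite sides in the groups, with a median log2 fold change of -0.31 between replicates 1 and 4 and 0.34 between replicates 2 and 3. Of 76 cytosolic ribosomal protein genes, none was called (median -0.02), and their medians within the pairs were 0.11 and -0.16. Respiratory chain and proteasome genes had medians of 0.01 and 0.01. Values that average the 4 replicates therefore rest on pairs that can differ in sign when matched by number. Matched the other way, astrocyte sums of Sh + Flx anxious replicates 1 and 4 (3467 and 3319 CPM) lay near Sh + Flx replicates 2 and 3 (3419 and 3276 CPM). Sh + Flx anxious replicates 2 and 3 (4854 and 4575 CPM) then lay above Sh + Flx replicates 1 and 4 (4202 and 3982 CPM).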

How the data were processed

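The authors amplified input and TRAP RNA with a kit that keeps no strand (Ovation RNA-Seq V2), sequenced it in pairs and aligned it with TopHat2 2.0.11 to mm10. The deposited files hold their raw counts per gene, made with a counter not named in the labels or methods. Deposited tables of mean FPKM and the authors' own fold changes were not used.

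Counts of 24062 genes in 16 input libraries were filtered with filterByExpr by group, scaled by TMM and fitted without covariates in edgeR 4.0.16 (glmQLFit, glmQLFTest; R 4.3.3), with Benjamini-Hochberg adjustment and a threshold of 0.05. All input groups share 1 estimate of the spread. Reads that name no gene, among them 46.5% to 51.5% outside features and 0.45% to 0.497% ambiguous, were left out of library sizes. The difference between TRAP and input was an interaction in a fit of the 16 fluoxetine libraries. CPM are TMM-scaled. DESeq2 1.42.0 and limma 3.58.1 served as alternatives, with other scalings, filters, blocks, summed replicates and each library left out. The procedure was tested on simulated data. Tables and plots were made with Python 3.11.15, scipy 1.17.1 and matplotlib 3.10.9. Positions and sequences are from RefSeq GRCm38.p6, the build the authors name mm10.

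Named genes are the called ones, the next by p up to 10 in a direction without overlap, up to 4 members of each list described (some of these are not reported here), and S100a10, Htr1a, Htr2a, Htr4, Slc6a4, Fos, Arc, Bdnf, Fkbp5 and Sgk1. Members, lists and rules were chosen with earlier results of these data known. Lists are described by counts and medians, with no test of a list. Fits of replicates 1 and 4 alone, and 2 and 3 alone, were added after the data had been seen.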

Additional observations from a re-analysis of the deposited data

Results flagged for a closer look

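In 166 groups of 4 libraries looked at, 10 single values stood far from the other 3 by Dixon's criterion, 4 in Sh + Flx anxious and 6 in Sh + Flx, and chance gives about 1 in 20. In Sh + Flx anxious, Spon1 was low in replicate 1 (67.6 CPM, others 78.4 to 80.3), Crtac1 high in replicate 3 (21.0 CPM, others 17.2 to 17.7) and Htr4 high in replicate 2 (3.76 CPM, others 1.59 to 1.96). Slc6a4 was at 0.106 CPM in replicate 1 and at 0 in the others.

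In Sh + Flx, Crtac1 was low in replicate 4 (11.5 CPM, others 13.1 to 13.2) and Inhba low in replicate 2 (58.3 CPM, others 67.7 to 68.4). Slc5a5 was high in replicate 2 (17.7 CPM, others 14.5 to 14.7) and Htr1a high in replicate 1 (21.5 CPM, others 15.2 to 16.1). The summed levels of glucocorticoid-induced genes (558 CPM, others 532 to 536) and of layer 2 to 4 markers (1652 CPM, others 1574 to 1583) were high in replicate 3. The low Spon1 value lies on the side of Sh + Flx, so that Spon1 is higher without it, and its call is the one kept without that library.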

How the results depend on the processing

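The number of called genes, 20 in the comparison as reported, was 20 to 22 with other scalings and 20 with a minimum of 1 CPM in 4 libraries. It was 23 with the pairs of replicates as a block, which joins pairs across the groups by number alone. Such a block cannot take up pair effects that differ between the groups. The number was 33 with no filter on low counts, 92 with DESeq2, 54 with limma-voom and quality weights, and 34 with only the 8 libraries compared. It was 1 with replicates 1 and 4 and 2 and 3 summed, 0 with all 32 libraries in 1 fit (284 genes at an unadjusted p under 0.05, with the wider spread of TRAP in the same estimate), and 9 to 24 with 1 library left out. With only replicates 1 and 4 it was 188, and with only replicates 2 and 3 it was 424, where the spread comes from libraries that resemble each other. In each of these 22 alternatives all 20 genes kept their direction. That outcome was nearly fixed in advance, since in all 20 the 4 libraries of one group lay beyond the 4 of the other. A kept direction is therefore no measure of stability. Replicate numbers do not pair the samples (correlations of same-numbered deviations -0.036 to -0.003), and the fit with the replicate block on 8 libraries called 9 genes, 5 of them among the 20. The difference between TRAP and input gave 0 calls with edgeR, also with the replicate block, 5 with DESeq2 and 0 to 1 with 1 library left out. Arc reversed to a log2 fold change of 0.53 (adjusted p = 0.00951) with only replicates 1 and 4, which are matched between the groups by number alone. No called gene had a mean under 4.44 CPM, and whether the pairs of replicates are separate pools was not tested. The causes of these shifts were not tested.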

Other observations

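Of 22 genes of cholesterol synthesis measured, 13 had a log2 fold change above 0 (median 0.07), near the 51.4% of all genes. None was called, and 4 stood higher and none lower at an unadjusted p under 0.05, against 3.98% of all genes higher. Srebf2, the factor that switches these genes on, had 41.4, 58.3, 50.9 and 54.8 CPM in Sh + Flx anxious, against 42.6, 42.4, 44.8 and 43.8 CPM in Sh + Flx, and its replicate 1 in Sh + Flx anxious lay below all 4 (log2 fold change 0.24, adjusted p = 0.387). The sterol enzymes Sc5d and Nsdhl had log2 fold changes of 0.29 and 0.23 (adjusted p = 0.425 and 0.497).

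Markers of layers 2 to 4 split within their list, although its median was 0.01. Rgs8, a regulator of G protein signaling, had 215, 189, 204 and 216 CPM in Sh + Flx anxious, against 166, 186, 176 and 174 CPM in Sh + Flx (log2 fold change 0.23, adjusted p = 0.136), and Cux2, a homeobox gene of upper layers, 45.8 to 51.4 CPM in Sh + Flx anxious and 40.8 to 44.7 CPM in Sh + Flx (log2 fold change 0.22, adjusted p = 0.397). Lamp5, a membrane protein of upper-layer neurons, had 43.1, 54.9, 50.2 and 40.6 CPM in Sh + Flx anxious, against 56.5, 57.1, 53.6 and 63.2 CPM in Sh + Flx (log2 fold change -0.29, adjusted p = 0.216).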
